A study of Mus musculus with 5 samples.

Results

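The lung of mice lacking PDE4B, labelled 4B(-/-), was set against the lung of C57, the C57BL/6J strain to which the knockout line had been crossed back. The rule took these 2 of the 5 arrays of the series, by sample title, and the log2 difference between them for every probe set. C57 mice were females of C57BL/6J without a targeted allele. The 4B(-/-) mice were females lacking Pde4b, from a line begun on a mix of C57BL/6 and 129/Ola and backcrossed to C57BL/6J for 11 generations or more. All animals were naive, meaning that none had received elastase. The other arrays, shown beside the pair where they place a value, were the wild-type line 4B(+/+) and the PDE4D lines 4D(+/+) and 4D(-/-), all females of the same type of background. For each strain 5 lungs were frozen and RNA from 3 of them, selected after a check of RNA quality, was pooled for 1 array. There is thus no replicate on either side, no p-value can be given, and the knockout cannot be told apart from any other difference between the line and C57. The exact part of Pde4b that was deleted, the age of the mice and the hour at which lungs were taken are unknown here.

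PDE4B belongs to the phosphodiesterases that break down cyclic AMP, the second messenger made by adenylyl cyclases when Gs-coupled receptors are engaged. Cyclic AMP activates protein kinase A, which phosphorylates CREB, a factor that binds cyclic AMP response elements in the promoters of immediate early genes. In lung, PDE4 enzymes act in leukocytes, smooth muscle and epithelium, and PDE4 inhibitors are used against airway inflammation. The series set out to list genes that differ from C57 in 4B(+/+), 4B(-/-) and 4D(-/-) but not in 4D(+/+), and the pair described here is 1 of those comparisons.

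The label of the tissue was borne out by its defining markers. Surfactant protein C (Sftpc) read 24791 in both arrays, the highest value on the 4B(-/-) array. The club cell secretoglobin Scgb1a1 read 24948 in C57 and 23282 in 4B(-/-), and the alveolar type 1 receptor Ager read 20143 and 19786. Over all probe sets the median intensity was 45.4 in C57 and 46.1 in 4B(-/-). The 3' to 5' ratio of actin, a sign of RNA integrity, was 1.88 in C57 and 1.79 in 4B(-/-), and that of Gapdh was 1.72 and 1.57. The B1 repeat control read 1444 in C57 and 2238 in 4B(-/-), the highest of the 5 arrays. Its part in the differences below was not tested.

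A gene was represented by its brightest probe set and was counted when at least 1 of the 2 arrays reached an intensity of 64. This left 11294 genes, with a Pearson r of 0.978 between the arrays across genes, which are not independent replicates. Of these, 70.3% lay within 1.2-fold and 544 were exactly equal, which RMA can produce when few arrays are summarised by medians. The median log2 difference over all of them was 0.01. In 4B(-/-), 76 genes were at least 2-fold higher than in C57, or 0.673% of those counted, and 72 were at least 2-fold lower, or 0.638%. At 1.5-fold, the threshold used below for members of gene lists, 280 genes (2.48%) were higher and 402 (3.56%) lower. Both arrays reached 64 for 39 of the 76 higher genes and 57 of the 72 lower genes. Where 1 array lay under 64, the fold is given as at least the brighter value over 64. Counts and list medians use values as read. A member that passed only through the array in which it is high had to differ. With values under 64 raised to 64, the 76 higher genes became 49 and the 72 lower genes became 63. Where a list count changes in this way, the raised count or the bound on the member's fold is given.

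**Figure D1:**
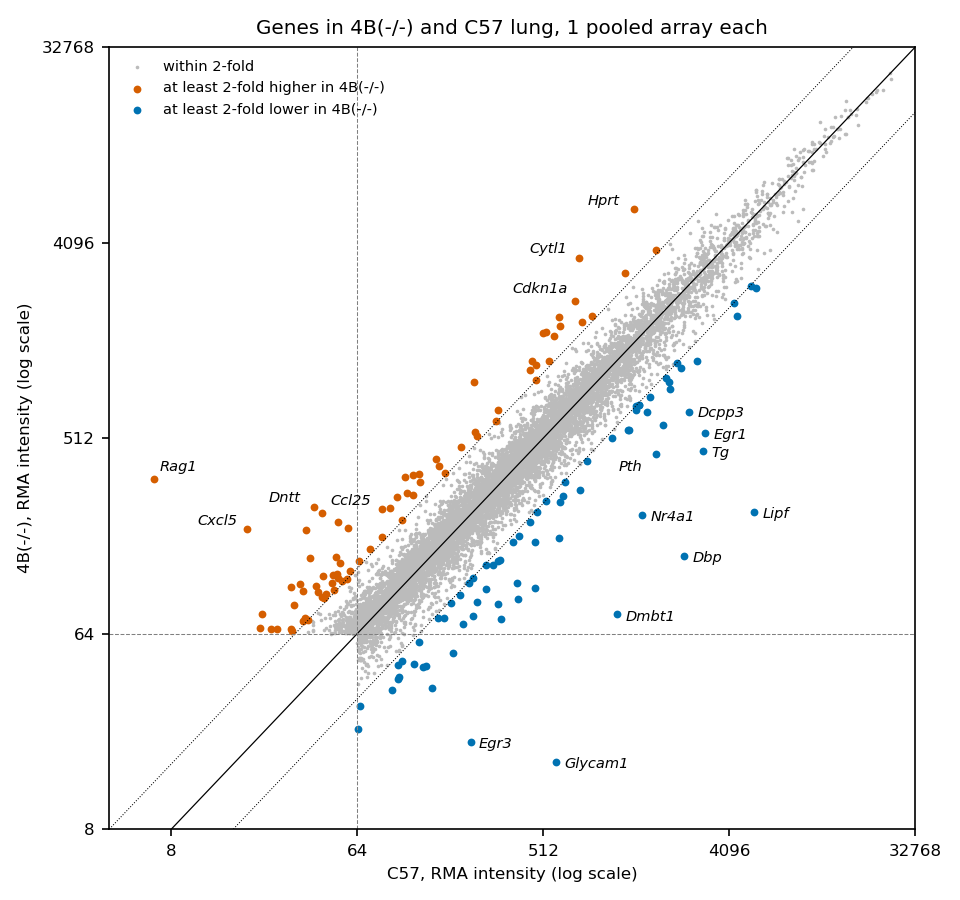
Intensity of each of the 11294 genes in C57 (horizontal, log scale) and in 4B(-/-) (vertical, log scale), with dotted lines at 2-fold and dashed lines at an intensity of 64. The 76 higher genes lie above the band and the 72 lower genes below it. Glycam1, Lipf, Dbp and Dmbt1 lie farthest from the diagonal among genes bright in C57, with Glycam1 under 64 in 4B(-/-).

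The pair differed in part because C57 stood away from all other strains and in part because 4B(-/-) did. Over the 11500 genes that reached 64 in any array, 4B(-/-) was at least 1.5-fold above each of the other 4 arrays in 22 genes (0.191%) and below each in 39 (0.339%). C57 was above each of the other 4 in 37 genes (0.322%) and below each in 46 (0.400%). With values raised to 64 these counts were 16, 26, 34 and 35. The 4B(+/+) array stood apart upwards in 7 genes and downwards in 1, 4D(-/-) in 21 and 11, and 4D(+/+) in 146 and 5, so standing apart was not particular to the pair. Of the 76 genes higher in 4B(-/-), 14 had 4B(-/-) apart, 32 had C57 apart, 1 of them both, and in 31 neither was. Of the 72 lower genes 24 had 4B(-/-) apart, 22 had C57 apart, 4 both, and 30 neither. The results below therefore give all 5 levels for the genes they turn on. List members named beyond the first 4 past 1.5-fold, and genes outside the lists and the ranked sets, were chosen after their values were seen. Differences from C57 in the other strains share the C57 array with this pair and are no independent check on it.

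Pde4b transcript itself differed little. Its brightest probe set read 438 in C57 and 457 in 4B(-/-), against 558, 468 and 466 in 4B(+/+), 4D(+/+) and 4D(-/-). The next read 464 in C57 and 397 in 4B(-/-), 1.17-fold lower, and the last that reached 64 read 199 and 164, 1.21-fold lower. In these last 2 probe sets 4B(-/-) was the lowest of the 5 arrays, and in the brightest it was not. The deleted part is not known here, so a probe outside it checks nothing, and the values do not settle whether the label is right.

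Other genes of the cyclic AMP pathway lay close to C57. Of 12 phosphodiesterases over the floor 1 was higher, 0 were lower and the list median was 0.02. The higher one was Pde3b, which hydrolyses cyclic AMP and is itself inhibited by cyclic GMP. It read 398 in C57, 631 in 4B(-/-), and 679, 581 and 551 in the other 3 arrays, so that C57 was the lowest strain. Of 30 genes of cyclic AMP production and sensing 1 was higher and 1 lower (median log2 difference -0.06). Crem, a CREB relative whose short form is a feedback repressor, was 1.89-fold higher at 261 against 138, and Calcrl, the receptor subunit for adrenomedullin and CGRP, was 1.71-fold lower at 5157 against 8821. Crem read 225 to 239 in the other 3 arrays. A count of 1 in a list of 12 or 30 is too small to set against the 2.48% higher and 3.56% lower of all genes.

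Genes of the circadian clock differed with C57 as the outlying strain. In this loop the activator BMAL1 (Arntl), with CLOCK or NPAS2, drives the repressors of the Per and Cry families and Nr1d1 and Nr1d2 from E-box elements. NR1D proteins repress Arntl in turn. Dbp, Tef and Hlf encode activators of D-box elements, where Nfil3 encodes a repressor. Of 13 core clock genes 4 were lower and 2 higher in 4B(-/-) (median log2 difference -0.47), and of 9 clock output genes 6 were lower and 1 higher (median log2 difference -0.71).

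Dbp read 2475 in C57 and 146 in 4B(-/-), 16.9-fold lower. It read 176 in 4B(+/+), 233 in 4D(+/+) and 247 in 4D(-/-), so C57 stood far above every strain and 4B(-/-) was the lowest. Per3 read 385 in C57 and 92.1 in 4B(-/-), 4.18-fold lower, and 106 to 111 in the other arrays. Per2 read 307 and 88.1, 3.48-fold lower, with the others at 110 to 118. In these 3 genes C57 was high, the other strains lay close together and 4B(-/-) was lowest. Hlf read 381 in C57 and 110 in 4B(-/-), a 3.47-fold difference, and Tef 1630 and 673, 2.42-fold. Nr1d2 read 2868 and 1160, 2.47-fold lower. For Hlf 4B(-/-) equalled 4D(-/-), and for Tef it lay just above the other 3 strains, at 611 to 651. Per1 was 1.98-fold lower, Ciart, a repressor of BMAL1 activity, at least 1.59-fold, Wee1 1.64-fold and Bhlhe40 1.60-fold.

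Genes of the opposite phase were higher. The Arntl level was 379 in 4B(-/-) and 160 in C57, a fold of 2.37, with 320 to 402 in the other arrays. Nfil3 read 138 against 64.9, 2.12-fold higher, and 148 in 4B(+/+) and 154 in 4D(-/-). Npas2 read 74.0 against 37.0, at least 1.16-fold higher, and 78.3 to 94.3 elsewhere. With values raised to 64, 1 core clock gene was higher, Arntl. For all of these C57 was the lowest strain, and 4B(-/-) lay within or just below the range of the rest.

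Promoter windows of 3 genes are shown because each holds several matches to an element named here. Each window is the 250 bases before the RefSeq start site on GRCm38.p6, written along the gene's strand. The Per3 window lies on chromosome 4, chr4:151044666-151044915, minus strand. It holds the D-box word TTATGTAA at 205 and 158 bases before the start, shown in capitals. The Ciart window lies on chromosome 3, chr3:95882229-95882478, minus strand. It holds the E-box CACGTG at 116, 58 and 44 bases before the start. The Nr4a1 window lies on chromosome 15, chr15:101266596-101266845, plus strand. It holds the short core of the cyclic AMP response element, TGACG, read on the opposite strand as CGTCA, at 233, 213, 69 and 40 bases before the start.
Per3: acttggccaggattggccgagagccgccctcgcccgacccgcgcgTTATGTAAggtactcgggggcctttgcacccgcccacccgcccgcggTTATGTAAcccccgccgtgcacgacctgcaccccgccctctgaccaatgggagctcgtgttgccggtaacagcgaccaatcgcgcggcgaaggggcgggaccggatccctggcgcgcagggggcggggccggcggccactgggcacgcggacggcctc
Ciart: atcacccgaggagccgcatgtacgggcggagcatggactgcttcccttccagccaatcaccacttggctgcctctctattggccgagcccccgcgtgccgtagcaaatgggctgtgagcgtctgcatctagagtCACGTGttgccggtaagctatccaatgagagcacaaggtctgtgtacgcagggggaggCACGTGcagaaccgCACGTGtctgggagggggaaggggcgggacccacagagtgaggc
Nr4a1: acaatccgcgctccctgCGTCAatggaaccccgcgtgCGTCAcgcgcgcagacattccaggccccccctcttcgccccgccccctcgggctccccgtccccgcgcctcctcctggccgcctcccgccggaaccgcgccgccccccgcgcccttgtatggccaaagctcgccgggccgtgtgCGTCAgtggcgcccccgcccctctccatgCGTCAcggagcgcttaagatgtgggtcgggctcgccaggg

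Motif words were searched on both strands in these 250 bases. Among all 32851 windows of this length, 6.02% held CACGTG, 0.931% held TTATGTAA or TTACGTAA, 17.8% held TGACG, 1.55% held the full element TGACGTCA, and 6.18% held TAGGTCA or AAGGTCA, the core bound by NR1D and ROR proteins. TGACG is part of TGACGTCA, so the counts of these words overlap. In the core clock list 2 of 18 windows held an E-box and 1 a D-box. In the clock output list 3 of 10 windows held an E-box and 0 a D-box. Of 26 windows of immediate early genes 16 held TGACG, 3 the full element, 5 an E-box and 0 a D-box. TGACG was also in 6 of 18 core clock windows and 3 of 10 clock output windows. The core bound by NR1D and ROR proteins was in 0 of 18 core clock, 1 of 10 clock output and 0 of 26 immediate early windows. Several windows belong to the same gene and overlap, and a match is only a word in the sequence.

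Immediate early genes, transcribed within minutes of a stimulus without new protein, were lower in 4B(-/-) than in C57 as a group. Of 25 members over the floor 15 were lower and 0 higher, beside 3.56% and 2.48% of all genes. The list median was -0.65 where that of all genes was 0.01. The other strains were below C57 too, with list medians of -0.37 in 4B(+/+), -0.37 in 4D(+/+) and -0.36 in 4D(-/-). Against 4B(+/+) in place of C57 the median of 4B(-/-) was -0.27. Nr4a1, an orphan nuclear receptor whose window is printed above, read 1548 in C57 and 226 in 4B(-/-), 6.84-fold lower. It read 414 in 4B(+/+), 726 in 4D(+/+) and 581 in 4D(-/-). C57 was thus the highest strain and 4B(-/-) the lowest, 1.83-fold under its nearest neighbour.

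The zinc finger factors Egr1, Egr2 and Egr3 were also highest in C57 and lowest in 4B(-/-). Egr1 read 3115 in C57, 541 in 4B(-/-) and 815, 1006 and 866 in 4B(+/+), 4D(+/+) and 4D(-/-), a difference of 5.76-fold in the pair. Egr3 read 227 in C57 and 20.2 in 4B(-/-), at least 3.55-fold lower, and 50.7, 78.4 and 99.0 elsewhere. Egr2 read 121 and 46.2, at least 1.89-fold lower, and 77.8 to 107 elsewhere. For Egr1, 4B(-/-) was 1.51-fold below its nearest neighbour, while for Egr2 and Egr3 it was under the floor. Egr4 was under the floor in both arrays.

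Ccn1, a matricellular protein formerly named Cyr61, read 1947 in C57 and 589 in 4B(-/-), 3.31-fold lower, but 4D(-/-) was lower still at 544. Of its 3 other probe sets over the floor, 1 was past 1.5-fold the same way. Fos, a subunit of AP-1, read 1334 in C57, 560 in 4B(-/-) and 737 to 811 elsewhere. Atf3 was 2.19-fold lower, and the kinase Sik1, a CREB target that restrains CREB coactivators, 2.02-fold. The prostaglandin synthase gene Ptgs2, named after its values were seen, read 390 in C57 and 180 in 4B(-/-), and 234 to 426 elsewhere. Nr4a2 (1.96-fold), the mRNA decay factor Zfp36 (1.92-fold) and the phosphatase Dusp1 (1.66-fold) were also lower.

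**Figure D2:**
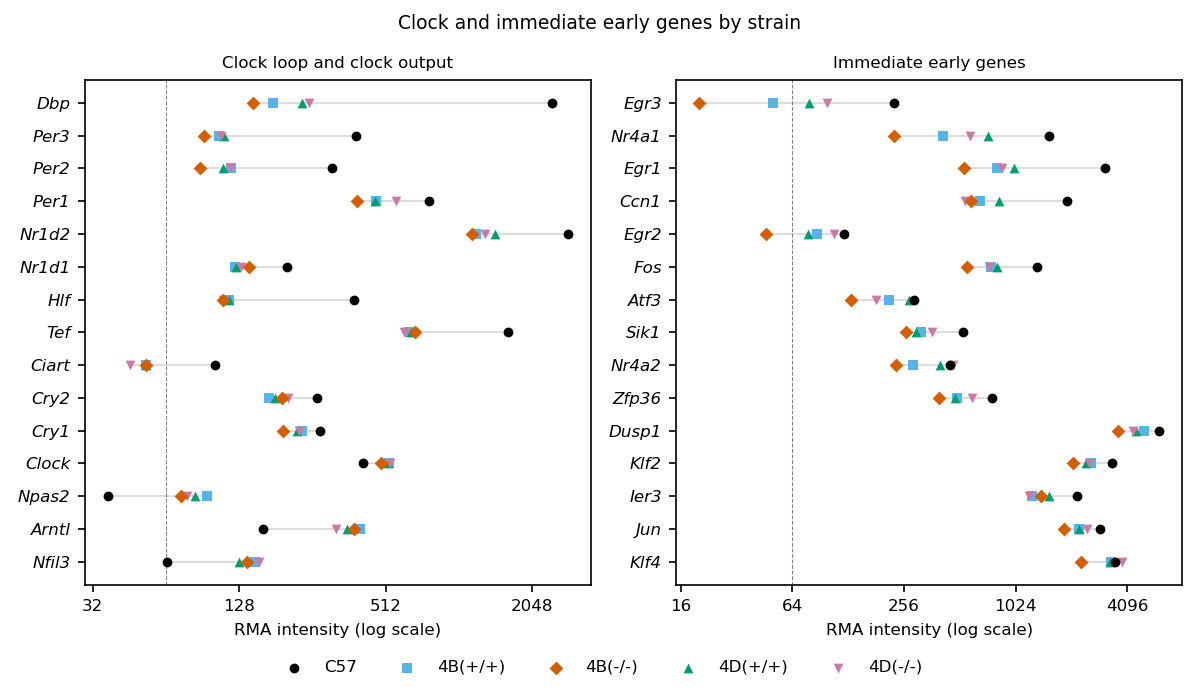
Intensity (log scale) of clock genes (left) and immediate early genes (right) in the 5 arrays, 1 symbol per strain, with a dashed line at an intensity of 64. C57 lies at the right end for Dbp, Per3, Per2, Egr1 and Nr4a1 and at the left end for Arntl, Npas2 and Nfil3, and 4B(-/-) lies at the left end for Dbp, Per3, Nr4a1, Egr1, Egr2 and Egr3.

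Among 22 heat shock chaperones, 8 were higher in 4B(-/-) than in C57 and 0 lower (median log2 difference 0.35). Hsph1, a nucleotide exchange factor for HSP70, read 610 in C57, 1853 in 4B(-/-), and 1950, 1617 and 1348 in the other arrays, 3.04-fold higher in the pair. Hspe1, the mitochondrial cochaperone, was 1.78-fold higher, the HSP40 protein Dnaja1 1.76-fold and the HSP90 cochaperone Chordc1 1.71-fold. The inducible Hspa1a and Hspa1b, which are near-identical and may share probes, lay within 1.5-fold, at 705 against 578 and 2339 against 2036. C57 was the lowest strain for Hsph1, and 4B(-/-) lay among the other 3.

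Glucocorticoid-responsive genes split. Of 17 members 5 were higher and 2 lower (median log2 difference -0.02). Cdkn1a, the cell cycle inhibitor p21, read 731 in C57 and 2203 in 4B(-/-), 3.01-fold higher, with 1918, 1145 and 2143 in 4B(+/+), 4D(+/+) and 4D(-/-). Zbtb16, a transcription factor of innate-like lymphocytes and a steroid target, read 470 and 1118, 2.38-fold higher. It read 592, 225 and 619 elsewhere, so 4B(-/-) stood 1.81-fold above every other strain. Fkbp5, a cochaperone of the glucocorticoid receptor, read 245 and 521, 2.13-fold higher, and 321, 196 and 465 elsewhere. Angptl4, an inhibitor of lipoprotein lipase, was 1.80-fold higher. Pdk4, which restrains pyruvate oxidation, was 1.54-fold higher. The 2 lower members, Per1 and Dusp1, are also in the clock and immediate early lists.

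Several genes of thymocytes and T cells were higher in 4B(-/-) than in any other strain. Of 8 thymocyte genes over the floor 6 were higher and 0 lower (median log2 difference 1.29), and of 11 T-cell genes 6 were higher and 0 lower (median log2 difference 0.67). Of these, 5 thymocyte and 4 T-cell genes passed the floor only through 4B(-/-), so the counts and medians are no support in themselves. With values raised to 64 the counts were 5 and 4 higher, and the medians 1.23 and 0.30. The lists share Cd8b1 and Themis. In a whole-lung pool, fewer or more cells of a type and less or more RNA per cell cannot be told apart. The summed intensity of the thymocyte list was 1421 in C57 and 2529 in 4B(-/-), and between 1448 and 1748 in the other 3 arrays. This sum includes the 5 members that passed only through 4B(-/-), so it is no support either. Its brightest member, Rmnd5a, was level at 858 in C57 and 892 in 4B(-/-).

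Rag1, which cuts DNA to assemble antigen receptor genes, read 331 in 4B(-/-) and 6.57 in C57, at least 5.17-fold higher. It read 126 in 4B(+/+), 98.1 in 4D(+/+) and 10.6 in 4D(-/-). Dntt, which adds bases at the joints of these genes, read 247 in 4B(-/-), 39.4 in C57 and 75.7, 61.0 and 47.5 in the other arrays, at least 3.85-fold higher in the pair. Both enzymes are typical of lymphocyte precursors, and both were highest in 4B(-/-). Ccl25, a chemokine made by thymic epithelium and gut, read 231 in 4B(-/-) and 43.0 in C57, at least 3.61-fold higher, and 79.2, 108 and 37.1 elsewhere. Its receptor Ccr9 read 240 and 84.3, 2.85-fold higher, and 77.3 to 99.6 elsewhere. Prss16, a serine protease of thymic cortical epithelium, read 143 and 37.5, at least 2.23-fold higher.

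Markers of T cells differed less. Cd8a read 121 in 4B(-/-) and 51.0 in C57, at least 1.89-fold higher, and Cd8b1 124 and 58.8, at least 1.93-fold. The other Cd8a probe set over the floor differed by 0.46 on the log2 scale, within 1.5-fold. Cd3d read 453 and 252, 1.79-fold higher, with 217 to 252 in the other arrays, and Cd3g 205 and 124, 1.65-fold. The receptor segment Trbv1 read 546 and 238, 2.29-fold higher, and 197 to 241 elsewhere, and the adaptor Sh2d1a 78.7 and 22.1, at least 1.23-fold. 4B(-/-) was the highest strain for each of these genes. Other T-cell genes were level, with Cd3e at 121 against 123, Il7r at 315 in both and Lef1 at 158 against 181. Of the 14 thymocyte genes, 6 were under the floor in both arrays, among them Rag2 (13.3 and 6.88), Ptcra (29.6 and 22.1) and Foxn1 (18.2 and 14.3), the regulator of thymic epithelium. Whether thymus tissue in the pool bears on these values was not tested.

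B-cell genes were lower in 4B(-/-). As read, 8 of 8 over the floor were at least 1.5-fold lower (median log2 difference -0.94), with 3 past 2-fold. With values raised to 64, 7 were, and the median was -0.77, because Blk, at 45.6 against 89.2, was at least 1.39-fold lower. Another 3 were under the floor in both arrays. H2-Ob, a chain of the peptide exchange regulator DO, read 243 in C57 and 89.4 in 4B(-/-), 2.72-fold lower. Fcmr, the receptor for IgM, read 271 and 103, 2.63-fold lower, and Bank1, a scaffold of B-cell receptor signalling, 158 and 75.5, 2.09-fold. C57 and 4D(-/-) were the 2 higher strains for H2-Ob and Fcmr, with 4D(-/-) at 190 and 234, while 4B(+/+) and 4D(+/+) read 110 to 145. The surface marker Ms4a1 (CD20) read 585 and 340, and Cd79b 351 and 214. The summed intensity of the list was 2024 in C57, 1055 in 4B(-/-), 1264 in 4B(+/+), 1236 in 4D(+/+) and 1738 in 4D(-/-).

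Other genes of mature B cells, named after their values were seen, were lower too. The factor Spib read 168 in C57 and 75.2 in 4B(-/-), and the BAFF receptor Tnfrsf13c 101 and 39.4, at least 1.58-fold lower. By contrast 2 of the 8 plasma cell genes were higher, Igha at 2959 against 1270, 2.33-fold, and the joining chain Jchain at 950 against 470, 2.02-fold. The other 3 strains were also above C57, at 3520 to 4114 for Igha and 1115 to 1514 for Jchain. The variable segment Ighv14-2 read 51.9 against 187, at least 2.92-fold lower. Probe sets of immunoglobulin genes may share sequence between family members, so these 3 are uncertain as single genes. The other immunoglobulin genes of the list lay within 1.5-fold, with Ighm at 3168 against 2414 and Ighg3 at 87.0 against 65.0. The proteoglycan Sdc1 was 1.77-fold lower by its brightest probe set, but its log2 difference by the median of its probe sets was -0.01. The list median was 0.33.

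Glycam1, a mucin of the high endothelial venules through which lymphocytes enter lymph nodes, was bright in C57 and under the floor in 4B(-/-). It read 588 in C57 and 16.4 in 4B(-/-), at least 9.19-fold lower, and 87.2 in 4B(+/+), 85.2 in 4D(+/+) and 1116 in 4D(-/-). The strains thus spanned a wide range, with C57 and 4D(-/-) high. Madcam1, Chst4 and Fut7 of the same vessels were under the floor in both arrays, and Selp read 89.9 and 72.1. The chemokine receptor Ccr7, which guides lymphocytes and dendritic cells into nodes, was 1.94-fold lower, and the early activation marker Cd69 read 94.4 and 35.0, at least 1.47-fold lower.

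**Figure D3:**
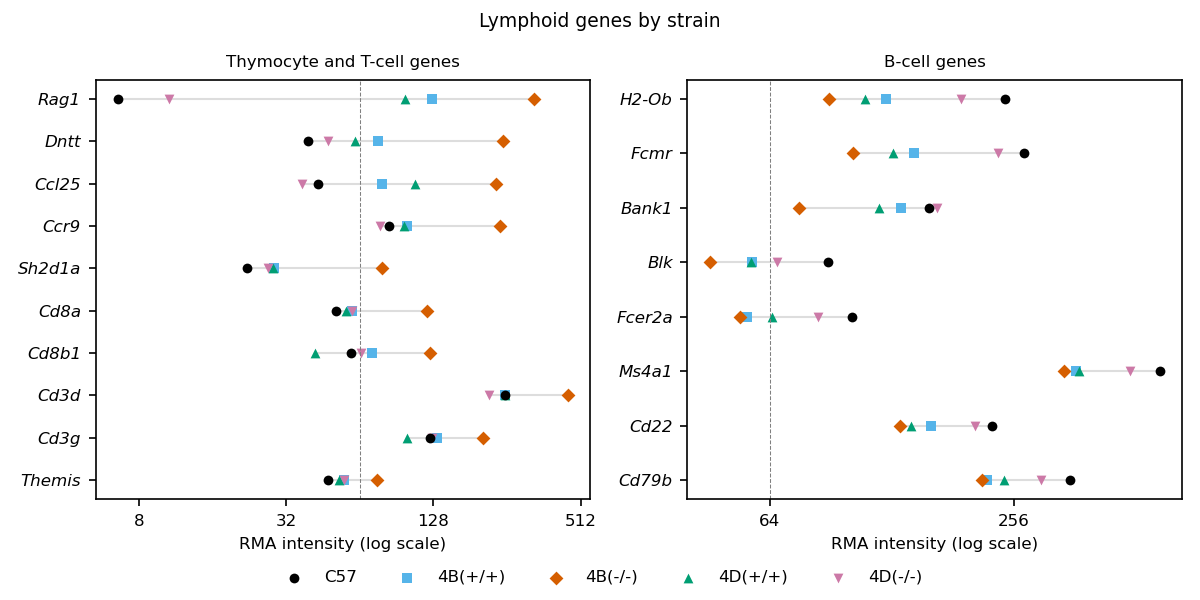
Intensity (log scale) of thymocyte and T-cell genes (left) and B-cell genes (right) in the 5 arrays, 1 symbol per strain, with a dashed line at an intensity of 64. On the left 4B(-/-) lies at the right end of every gene drawn, and on the right 4B(-/-) lies at the left end with C57 at or near the right end.

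Among genes over the floor in both arrays, Lipf, gastric lipase, had the largest difference of the pair. It read 5390 in C57 and 234 in 4B(-/-), 23.1-fold lower, and 9517, 13730 and 5056 in 4B(+/+), 4D(+/+) and 4D(-/-). Dmbt1, a scavenger receptor secreted by mucosa, read 1172 in C57 and 78.4 in 4B(-/-), 14.9-fold lower, and 1544 to 2967 elsewhere. Here 4B(-/-) was the outlying strain, since every other array was at least 21.6-fold (Lipf) and 14.9-fold (Dmbt1) brighter. Wfdc18 read 469 and 104, 4.52-fold lower, and Dcpp3, of a family with near-identical copies, 2623 and 672, 3.90-fold lower. The trefoil peptide Tff2 read 554 and 305, and Gp2, a zymogen granule protein named after its values were seen, 234 and 77.1.

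The gland list as a whole was mixed, with 5 of 12 members lower, 1 higher (Agr2, at 235 against 137) and a median of -0.15. Lactotransferrin (Ltf) at 3598 against 3038, Lcn2 at 944 against 1067 and Pigr at 1334 against 1054 lay within 1.5-fold. These are products that airway epithelium also makes. The summed level of the list was 15918 in C57, 7962 in 4B(-/-) and 22352 to 46176 elsewhere.

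Hormone genes of the neck followed the glands. Thyroglobulin (Tg), the hormone precursor of the thyroid, read 3065 in C57 and 448 in 4B(-/-), 6.84-fold lower, and 4802, 7717 and 1687 elsewhere. Parathyroid hormone (Pth) read 1799 and 432, 4.16-fold lower, and 4999, 7455 and 2155 elsewhere. Chromogranin A (Chga), a granule protein of endocrine cells, read 319 and 74.8, 4.27-fold lower, and the anion transporter Slc26a7 147 and 36.0, at least 2.29-fold. For all 4, 4B(-/-) was the lowest strain and 4D(+/+) the highest. Of 4 members of the thyroid and parathyroid list over the floor 3 were lower (median log2 difference -2.04). The thyroid genes Tshr, Slc5a5 and Pax8 were under the floor in both arrays, as was Nkx2-1, a factor of lung and thyroid. Whether tissue from beside the lung, in differing amounts between pools, bears on these genes was not tested.

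Muscle genes parted by type. Of 15 cardiac muscle genes, which in mouse lung include those of myocardium around the pulmonary veins, 11 were higher and 0 lower (median log2 difference 0.84), or 10 with values raised to 64. The atrial peptide Nppa read 793 in C57 and 1753 in 4B(-/-), 2.21-fold higher, with 1215 to 1379 elsewhere. Myl7, the atrial myosin light chain, read 2875 and 5169, 1.80-fold higher, with 2944 to 3880 elsewhere. In both 4B(-/-) was the highest strain and C57 the lowest. The light chain Myl3 was 2.57-fold higher, Csrp3 2.13-fold and sarcolipin (Sln) 2.12-fold. The ventricular light chain Myl2 read 67.7 and 21.6, at least 1.06-fold higher. The summed level of the list was 17429 in C57, 26287 in 4B(-/-) and 19900 to 22482 elsewhere.

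Skeletal muscle genes had a median of 0.00, with 4 of 14 lower and 1 higher. The fast myosin Myh4 read 612 in C57 and 177 in 4B(-/-), 3.47-fold lower, the calcium pump Atp2a1 215 and 121, 1.78-fold, parvalbumin (Pvalb) 226 and 144, 1.57-fold, and Actn3 118 and 75.8, 1.56-fold. Those 4 are proteins of fast fibres. Myh2, a myosin of another fast fibre type, went the other way at 197 and 57.8, at least 3.08-fold higher. The remaining 9, such as Ckm at 592 against 473 and Tnnt3 at 321 against 316, lay within 1.5-fold. The summed level of this list was 6235 in C57, 5939 in 4B(-/-), 12287 in 4B(+/+), 50190 in 4D(+/+) and 12382 in 4D(-/-).

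By their list medians, fat and cartilage genes were higher in 4B(-/-) than in C57, but not than in 4B(+/+). Single members such as Retn were higher than in both. Of 11 fat genes 6 were higher and 0 lower (median log2 difference 0.78). The adipokine resistin (Retn) read 236 in C57 and 931 in 4B(-/-), 3.94-fold higher, and 803, 877 and 244 in 4B(+/+), 4D(+/+) and 4D(-/-). Adiponectin (Adipoq) read 615 and 1689, 2.75-fold higher, and Cox8b, a respiratory subunit of brown fat and muscle, 450 and 1166, 2.59-fold. The lipid droplet protein Cidea was 1.95-fold higher. For Retn, Adipoq and Cox8b 4B(-/-) stood close to 4B(+/+), and C57 stood close to 4D(-/-). Adig, an adipocyte gene, was 2.74-fold higher, and Thrsp, a regulator of lipid synthesis, 2.60-fold.

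Of 14 cartilage and tendon genes 11 were higher and 0 lower (median log2 difference 0.97). Of these members 7 passed the floor only through 4B(-/-), and with values raised to 64 the count was 7 and the median 0.56. Cnmd, an inhibitor of vessel growth in cartilage, read 192 in 4B(-/-) and 36.1 in C57, a difference resting on a C57 value under the floor, and 111 to 261 elsewhere. The collagen of hypertrophic cartilage, Col10a1, read 210 and 51.4, at least 3.28-fold higher, and Comp 344 and 119, 2.88-fold. Ucma, of growth plate cartilage, was at least 2.25-fold higher. Cytl1, a secreted protein of cartilage, had the largest difference of any higher gene with both arrays over the floor. It read 3490 in 4B(-/-), 765 in C57 and 3695, 2024 and 1916 in the others, 4.56-fold higher in the pair. For Cnmd, Col10a1, Comp and Cytl1 C57 was at least 1.5-fold below every strain. The fat and cartilage medians against 4B(+/+) in place of C57 were -0.21 and -0.55.

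**Figure D4:**
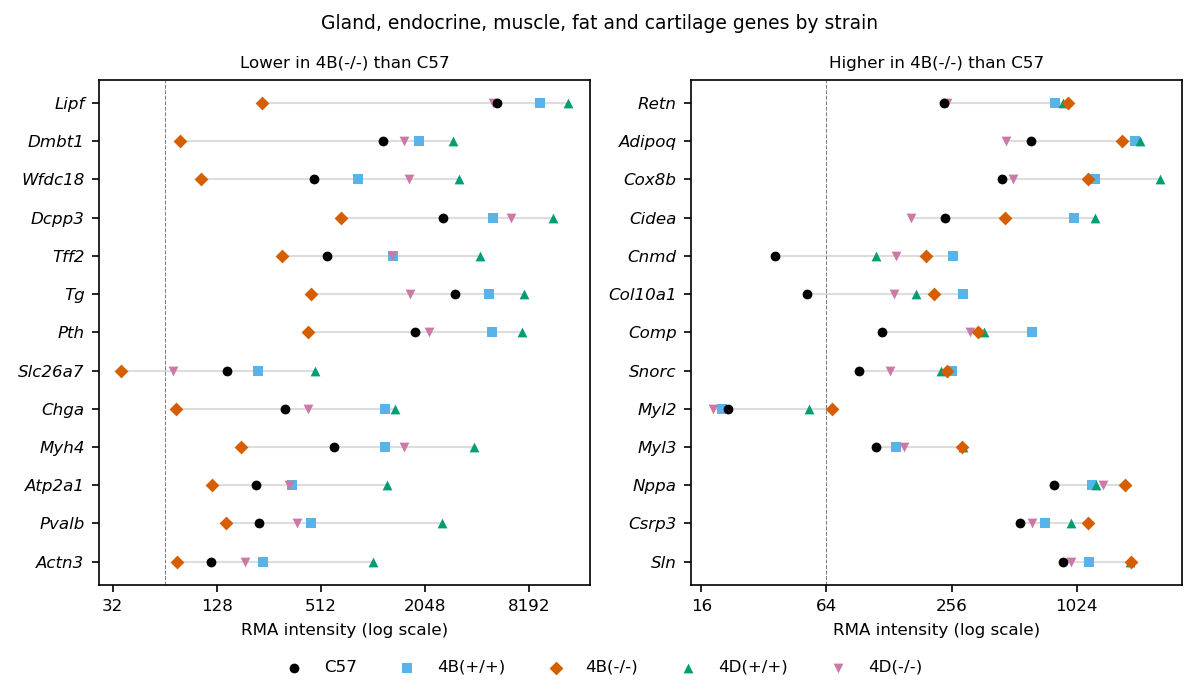
Intensity (log scale) in the 5 arrays of gland, endocrine and fast muscle genes that were lower in 4B(-/-) than in C57 (left) and of fat, cartilage and cardiac genes that were higher (right), with a dashed line at an intensity of 64. On the left 4B(-/-) is the lowest strain in each gene and 4D(+/+) the highest. On the right C57 is at or near the low end, and 4B(-/-) is at the high end for Retn, Nppa, Csrp3, Sln and Myl2.

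Most cytokine and chemokine genes were level. Of 22 over the floor 3 were higher and 0 lower (median log2 difference 0.11). Cxcl5, a neutrophil attractant of alveolar epithelium, read 194 in 4B(-/-) and 18.7 in C57, at least 3.04-fold higher, and 593 in 4B(+/+), 130 in 4D(+/+) and 53.8 in 4D(-/-). The strains differed over a wide range, with 4B(+/+) above 4B(-/-). The CCR6 ligand Ccl20 read 118 and 43.6, at least 1.84-fold higher, and the third was Ccl25. Of 6 neutrophil genes 3 were higher (median log2 difference 0.47), or 2 with values raised to 64 (median 0.22). The list medians of the other strains minus C57 were 0.59 in 4B(+/+), 0.67 in 4D(+/+) and -0.01 in 4D(-/-). The calgranulins S100a8 and S100a9 were 1.61-fold and 1.63-fold higher, and Il1r2 read 73.3 and 38.7, at least 1.14-fold higher. The granule genes Ngp and Camp were under the floor in both arrays. The monocyte chemokine receptor Ccr2 was 2.16-fold lower at 169 against 365, but its other probe set over the floor differed by -0.05 on the log2 scale.

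Genes of elastin turnover, which elastase emphysema disturbs, differed in few places. Mmp12, the macrophage elastase, read 138 in C57 and 45.4 in 4B(-/-), at least 2.16-fold lower, and 42.8, 52.3 and 67.3 elsewhere, so that C57 was the highest strain. Of 19 proteases and inhibitors of elastin breakdown 1 other, Mmp3, passed 1.5-fold, at 571 against 355. Elastin (Eln) read 616 in 4B(-/-) and 403 in C57, 1.53-fold higher, with 439, 393 and 754 in 4B(+/+), 4D(+/+) and 4D(-/-). Both knockouts thus lay above the 3 wild-type arrays for Eln. Lox, which crosslinks elastin and collagen, was 1.52-fold higher at 687 against 452. The other 20 of 22 matrix genes lay within 1.5-fold, with a median of 0.05.

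Markers of lung cell types lay mostly within 1.5-fold. The medians of the alveolar type 1, type 2 and club cell lists were -0.10, -0.02 and 0.06, with 1 member past 1.5-fold in each. These were the anchoring protein Akap5 (1.77-fold lower), the ETS factor Etv5 (1.74-fold lower) and the antibacterial lectin Reg3g (1.58-fold higher). Ciliated, smooth muscle, fibroblast and endothelial lists had medians of 0.29, 0.25, 0.04 and -0.17, with Myocd and Lum higher and Ednrb lower by over 1.5-fold. The medians of the macrophage lists were -0.06 (alveolar) and -0.01 (monocytes and interstitial), and that of the dendritic list was -0.27. In the alveolar macrophage list the lipid carrier Fabp4 was 1.71-fold higher and the lectin Siglecf 1.58-fold lower. The medians of the NK, erythroid and platelet lists were -0.06, 0.09 and 0.22, with Klra8 at least 1.42-fold lower. Mesothelial genes had a median of 0.25, with Msln 1.54-fold higher, and of 4 squamous genes Krt15 was 1.90-fold higher and Krt4 at least 1.48-fold (median log2 difference 0.69). Of 2 mast cell genes over the floor Hdc, the histamine-forming enzyme, was 1.56-fold higher.

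Cell division genes had a median of 0.29, with Ube2c at 108 against 67.6 and Cdk1 at 115 against 75.4 the 2 of 18 past 1.5-fold. In the interferon list Ifi27l2a was the 1 of 18 that differed, at 3794 against 1813, 2.09-fold higher, and the list median was 0.00. Of 22 xenobiotic genes Aldh3a1 was 1.60-fold higher, and Ces1d and the aryl hydrocarbon receptor Ahr were lower. Cyp4a12a read 65.6 against 31.0, at least 1.02-fold higher. Of 18 genes of oxidative stress defence 1 was lower, catalase (Cat), which removes hydrogen peroxide in peroxisomes. It read 4475 in C57, 1874 in 4B(-/-) and 2782, 2821 and 3757 elsewhere, 2.39-fold lower, while its other probe set over the floor was lower by a log2 difference of -0.52. Nnt, the mitochondrial transhydrogenase with a known mutation in C57BL/6J, read 345 in 4B(-/-) and 509 in C57, within 1.5-fold. Of 15 fatty acid genes Thrsp and Elovl6 were higher and Acsl4 lower. Of 4 nervous tissue genes the glial calcium binder S100b was higher, at 178 against 83.9.

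**Figure D5:**
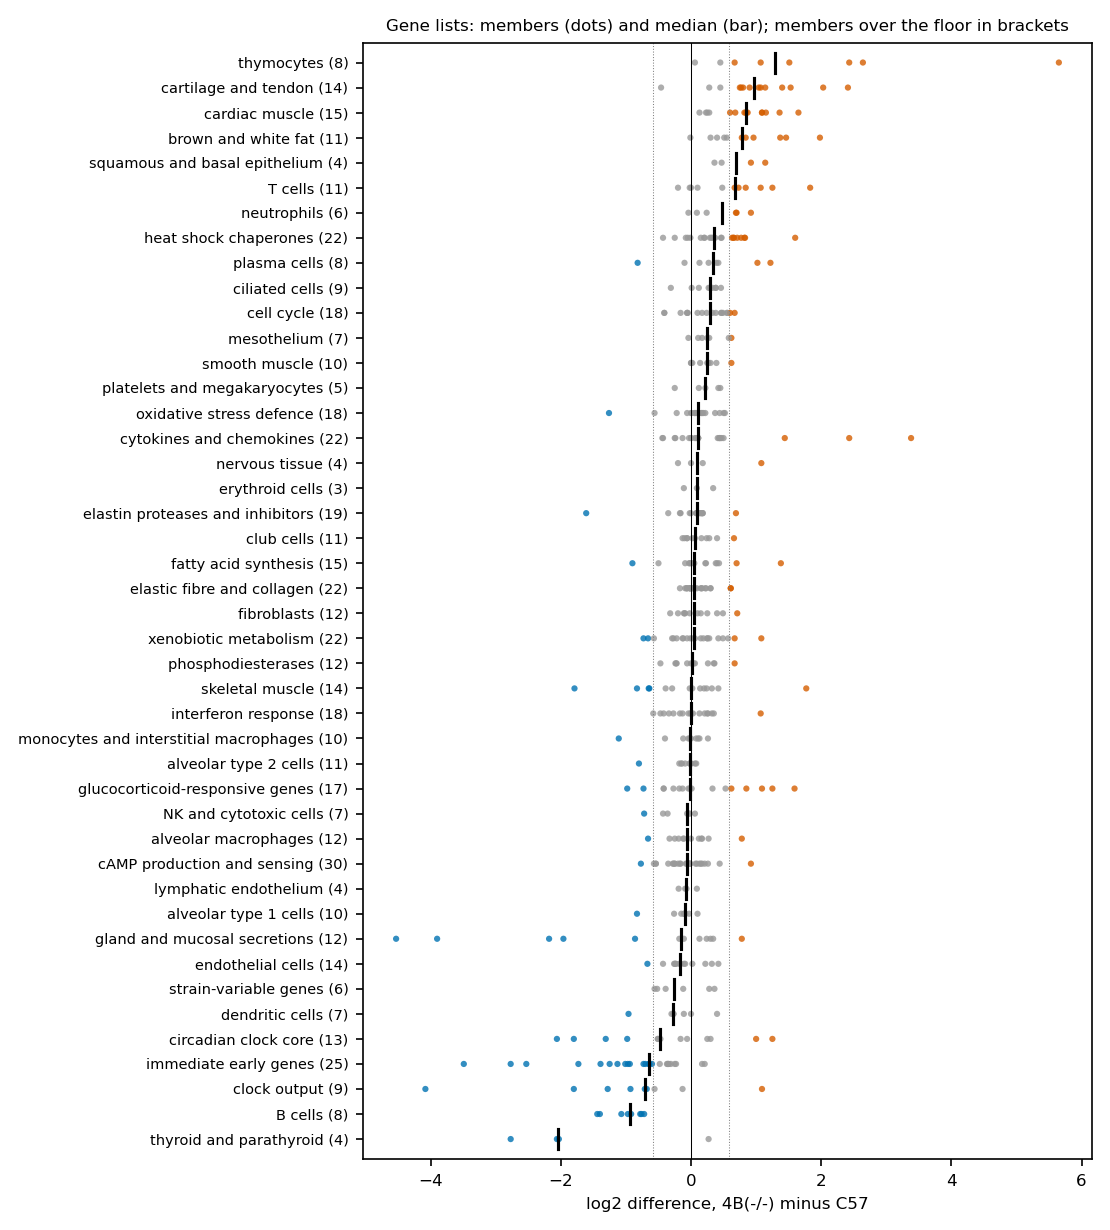
Log2 difference between 4B(-/-) and C57 (horizontal axis) for the members over the floor (dots) of each gene list with at least 3 such members, with the list median as a black bar and dotted lines at 1.5-fold. Thymocyte, cartilage and cardiac lists have the highest medians as read, at 1.29, 0.97 and 0.84. Thyroid and parathyroid, B-cell and clock output lists have the lowest, at -2.04, -0.94 and -0.71. With values raised to the floor the cartilage median is 0.56, below the cardiac (0.82) and fat (0.78) lists, and the thymocyte median is 1.23.

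Among the remaining genes named by rank, the X-linked gene Hprt, needed to salvage purines, read 5841 in 4B(-/-) and 1410 in C57, 4.14-fold higher, with 1520 to 1844 elsewhere. It is measured by 1 probe set. Npr3, the clearance receptor for natriuretic peptides, read 1578 and 526, a log2 difference of 1.58, and all 3 of its probe sets differed the same way. The secreted protein Ecrg4 was 3.12-fold higher, the pyrophosphatase Ppa1 3.05-fold, Mia 2.77-fold and Tmem45b 2.66-fold. Of these, Npr3 and Mia were highest in 4B(-/-). Prdm8 was at least 2.08-fold lower, and its other levels lay between 47.7 and 54.6, with C57 at 133.

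Genes beside Pde4b on chromosome 4 were examined because a stretch of the embryonic stem cell genome can stay linked to a targeted allele after backcrossing. Of the 200 nearest genes over the floor in the order of the RefSeq table, 5 were higher and 9 lower by 1.5-fold, with a median of 0.00, beside 2.48% and 3.56% of all genes. Both counts were close to those shares, and the neighbours named next were chosen after their values were seen. Efcab7, 7 such genes away, read 105 in 4B(-/-) against 36.7 to 58.4 in the rest, and Hyi, 86 genes away, 215 against 96.8 to 111. Efcab7 and Hyi were higher in 4B(-/-) than in every other strain. Other neighbours, such as Leprot and Scp2, were lowest in 4B(-/-), but by less than 1.5-fold from the nearest strain. Leprot, 2 genes away, read 953 against 1191 to 1660 elsewhere, and Scp2, 22 genes away, 2515 against 3345 to 5551. The 3 other probe sets of Scp2 over the floor lay within 1.5-fold. The counts of 5 and 9 use values as read. Among the 5, Orm1, Efcab7 and Cyp4a12a passed the floor only through 4B(-/-), with C57 at 30.6, 58.4 and 31.0. Among the 9, Alg6 and Dio1 passed only through C57, with 4B(-/-) at 46.1 and 37.6. With values raised to the floor, Cyp4a12a, Alg6 and Dio1 lay within 1.5-fold, so both counts were smaller.

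Of the 148 genes past 2-fold, 41 had another probe set over the floor, and in 25 of these at least 1 of them also differed by 1.5-fold the same way. In 16 the others lay within 1.5-fold, and in 0 did one differ by 1.5-fold the opposite way. The other probe set of Dbp differed by a log2 of -3.29, that of Dntt by 2.92 and that of Cdkn1a by 1.56. By contrast the RNA-binding protein gene Qk, 2.02-fold lower by its brightest probe set at 2569 against 5196, had 6 others with log2 differences of -0.51 to -0.26. Hnrnpr, at 928 against 2088, had 3 others between -0.43 and -0.02. Lower values of Qk and Hnrnpr, named after their values were seen, rest on the probe set chosen.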

How the data were processed

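Whole-lung RNA was hybridised to 1 array per strain, and the 4B(-/-) and C57 arrays were compared. The authors deposited linear RMA intensity values for each probe set, and the submitters' processing notes name RMA. Version, settings and the build behind the probe sets are not stated in the labels. RMA makes the distributions of arrays equal, so a change common to most genes would not show.

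Intensities were converted to log2. Of 45101 probe sets, 34958 carried 1 gene symbol in the platform table and were used, for 18194 genes, while 932 carried several and 9211 carried none. Each gene was represented by the probe set brightest on average, counted when C57 or 4B(-/-) reached 64. No test was run, because each side has 1 array, and this number limits the precision. Folds of 2 (genes) and 1.5 (list members) describe sizes only.

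The 48 lists held 716 symbols, of which 646 were measured and 527 over the floor. The members and lists were chosen with earlier results of these data known. Genes named were drawn from the 15 largest differences each way with both arrays over the floor, the 8 brightest each way with 1 array under it and at least 2-fold past it, up to 4 members per list past 1.5-fold, the 8 genes each way in which 4B(-/-) stood farthest from every other array, and Pde4b. Others are said to be outside this rule, or are given as level members of a list.

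Promoter sequences came from RefSeq on GRCm38.p6, and the neighbour order from the table of that assembly. Counting was tested on simulated data beforehand. Alternatives covered the floor, the fold, the choice of probe set, cyclic loess (limma 3.58.1 in R 4.3.3), centring and the reference. Figures and counts used Python 3.11.15.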

Additional observations from a re-analysis of the deposited data

How the results depend on the processing

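No paired analysis was possible because each strain has 1 array, and no replicate could be left out. The count of 76 higher genes became 49 at the higher of the alternative floors and 49 with values raised to the floor, 280 at 1.5-fold and 19 at 3-fold. With C57, 4B(+/+) and 4D(+/+) averaged as the reference 15 were higher, and with 4B(+/+), a reference chosen after seeing the data, 12. The 72 lower genes became 402 at 1.5-fold, 21 at 3-fold and 31 against 4B(+/+). List members past the threshold, 83 higher and 61 lower, became 39 and 30 at 2-fold, and the higher ones 25 against the wild-type mean and 21 against 4B(+/+). Genes with 4B(-/-) above each other array went from 22 to 12 at the higher of the alternative floors and 8 at 2-fold, and those below from 39 to 14 at 2-fold. Genes with C57 above or below went to 13 and 12 at 2-fold. Fewer calls at a stricter fold or floor follow from the setting, and for the change of reference the cause was not tested. The other 52 of 70 recomputed counts stayed within 1.5 times of those reported.

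Against the wild-type mean the medians of fat (-0.01) and squamous genes (-0.09) changed sign, as did Thrsp (-0.12), Elovl6 (-0.36), Msln (-0.02), Fabp4 (-0.02), Cidea (-0.53), Krt4 (-0.49) and Krt15 (-0.04). Against 4B(+/+) the medians of fat (-0.21), cartilage (-0.55), squamous (-0.24), heat shock (-0.11) and plasma cell genes (-0.14) did, and the clock output median was -0.09. The cell cycle median was -0.06 at the higher floor. Other sign changes were of medians no larger than 0.17 in size. Cartilage (0.20), skeletal muscle (-1.44) and thyroid genes (-3.01) also moved against the wild-type mean, as did the latter lists against 4B(+/+) (-0.98 and -3.02), thymocytes at the higher floor (1.97) and the thyroid list at the lower floor (-0.99). Of the named genes' recomputed values 74 moved by over 1.5-fold without changing sign, 56 of them against the wild-type mean, among them Cytl1 (0.96), Hsph1 (0.57) and Comp (0.19). Acsl4 was 0.11 by the median of its probe sets. The cause was not tested. With 1 pooled array per strain, no difference can be set against the spread between animals.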
